A study of Homo sapiens with 12 samples.

Results

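Human chromosome 19 carries the largest collection of zinc finger genes in the genome, and the H3K9me3 peaks called on it in HCT116 cells are described here. They are every peak on chromosome 19 in 4 deposited peak lists, a chromosome singled out with earlier results of these data known, and they number 378 of the 4723 peaks on chromosomes 1 to 22 and X, or 8.003%. Each peak was assigned by its midpoint to one of 5 windows that hold zinc finger gene clusters, or to the rest of the chromosome. In hg19 megabases the windows run over 8.5 to 13 for the first, 19.5 to 24.5 for the second, 34.5 to 38.5 for the third, 44 to 45.2 for the fourth and 52 to 59.13 for the fifth. They held 42, 54, 51, 10 and 86 peaks in that order, and the rest of the chromosome held 135.

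H3K9me3, the trimethylated form of lysine 9 of histone H3, marks transcriptionally silent heterochromatin. It is written by methyltransferases that take the methyl group from S-adenosylmethionine, which cells make from methionine. KRAB zinc finger proteins bind DNA, often within transposable elements, and recruit the corepressor TRIM28 and the methyltransferase SETDB1, and their own genes, which lie in tandem clusters, are known carriers of the mark over their zinc finger exons.

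HCT116 is a human colorectal carcinoma line, and all cells were at passage 19. The restricted group held 2 libraries (A and B) from cells kept for 24 hr in methionine-free RPMI-1640 with 10% serum, and the control group held 2 libraries (A and B) labelled 0 hr from cells in standard RPMI-1640 with the same serum. No control at 24 hr was analysed here, so methionine restriction and time in fresh medium cannot be told apart. Whether the A and B libraries are from different cultures is not stated in the labels, so each p-value reflects only how far these libraries spread, which may be technical.

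The restricted A and B lists rested on 33801853 and 35023269 ChIP reads, against 35736289 and 33503018 reads for control A and B. They held 1880 and 674 peaks, against 1372 and 797 peaks in the control lists. The A libraries were read on one sequencing lane and the B libraries on another, per the file headers, and the lists of the A libraries were the longer ones in both groups. Restricted A stood apart with the longest list. Peak numbers and lengths therefore differed more between letters than between groups, and comparisons below use a relative density: the share of a region that lies under peaks, divided by the share of chromosomes 1 to 22 and X under peaks in the same list, so that 1 is the genome average. With 2 libraries a group the smallest p of the exact two-sided permutation test is 0.333, so no single comparison between the groups could pass 0.05.

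Chromosome 19 had 154 and 64 peaks in restricted A and B, against 105 and 55 peaks in control A and B. The peaks covered 137.1 and 58.42 kb in the restricted lists, against 111.7 and 58.95 kb in the control lists. Both measures overlapped between the groups (exact permutation test, two-sided, p = 0.667 for the number and p = 1 for the length). The median width was 688.5 and 731 bp in restricted A and B, against 795 and 889 bp in control A and B. Both restricted medians were below both control medians, on the other chromosomes as well, where they were 664 and 681 bp in restricted A and B, against 705 and 781 bp in control A and B. Peaks of 2 kb or more were few, 10 and 4 in the restricted lists, against 10 and 4 in the control lists.

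Chromosome 19 was enriched for H3K9me3 peaks in every list. Its relative density was 3.98 and 4.22 in restricted A and B, against 3.96 and 3.21 in control A and B. It ranked first of 23 chromosomes by density in restricted A, restricted B and control A, and second in control B, where chromosome 21 was denser. Set against all other chromosomes in the same library, its density was 4.23 and 4.51 times as high in restricted A and B, and 4.21 and 3.35 times as high in control A and B. The excess was thus present in 4 of 4 libraries, which is the most an exact sign permutation test over 4 libraries can show (two-sided p = 0.125, the smallest it can give, and 0.190 after Benjamini-Hochberg adjustment over 35 such comparisons). Few of its peaks were strong. Those with −log10 q of at least 5 were 3 of 154 and 7 of 64 in restricted A and B. In control A and B they were 4 of 105 and 2 of 55. On the other chromosomes they were 173 of 1726 and 110 of 610 in restricted A and B. In control A and B they were 154 of 1267 and 133 of 742 there. The share with a fold of at least 4 was lower than there in all lists but control A. The median fold was slightly higher than there in 4 of 4 libraries.

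The relative density of chromosome 19 was higher in both restricted lists than in both control lists, by 0.19 on the log2 scale (4.10 ± 0.17 in restricted and 3.58 ± 0.53 in control libraries, SD, n = 2 each, exact permutation p = 0.333, adjusted p = 0.917 over 11 comparisons). Of the 23 chromosomes, 7 were denser in both restricted lists, which is 30.4%, and 4 were sparser, which is 17.4%, so a chromosome without overlap between groups was common. With a divisor that leaves out sequence near centromere gaps the difference was 0.037, and with peaks of −log10 q of at least 2 it was 0.067. The gap also rested on control B, without which it was 0.049. Within letter A the restricted density was 1.004 times that of the control, and within letter B it was 1.316 times. Chromosome 19 held 8.19% and 9.50% of all peaks in restricted A and B, against 7.65% and 6.90% in control A and B.

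The zinc finger windows held most of the marked sequence. They make up 21.82 Mb of the 59.12 Mb of the chromosome, and contained 243 of the 378 peaks (64.29%). Of the chromosome 19 length under peaks, 62.0% and 70.8% lay in the windows in restricted A and B, against 72.1% and 63.7% in control A and B, so the groups overlapped (exact permutation p = 0.667). Relative density in the 5 windows together was 6.69 and 8.09 in restricted A and B, against 7.75 and 5.53 in control A and B. The rest of the chromosome stood at 2.40 and 1.95 in the restricted lists, against 1.75 and 1.85 in the control lists. It includes the centromere gap of 3.10 Mb, where no peak was listed. Over its length without the gap it stood at 2.61 and 2.13 in restricted A and B, against 1.91 and 2.01 in control A and B. The windows were thus 2.79 and 4.14 times as dense as the rest in restricted A and B, and 4.43 and 2.99 times in control A and B. The windows were the denser in 4 of 4 libraries (exact sign permutation p = 0.125, adjusted p = 0.190), and outside them the chromosome still lay above the genome average in every list. Part of the window length lay in 2 blocks of the third window, described below, whose peaks had low folds and raised input. The blocks held 5.37 of 85.01 kb and 14.44 of 41.35 kb in restricted A and B. In control A and B they held 34.8 of 80.6 kb and 11.96 of 37.53 kb. The ratio of windows to rest includes the blocks, and a ratio without them was not computed. Some of the peak length outside the windows lay within 5 Mb of the centromere gap. It was 2.67 of 52.1 kb and 6.70 of 17.1 kb in restricted A and B. In control A and B it was 3.02 of 31.1 kb and 11.6 of 21.4 kb, so in control B much of it lay there.

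As background to the windows, of 517 protein-coding genes named ZNF and a number in the RefSeq annotation of GRCh38.p14, 250 are on chromosome 19, which is 48.4%, while the chromosome has 1451 of 20056 protein-coding genes, or 7.23%. That annotation is of another build than the peaks, so no peak was assigned to a gene here. The distance from a window edge to the nearest peaks differed between windows. At the lower edge of the third window the nearest peaks lay 949 kb inside and 763 kb outside, with folds of 3.45 and 2.99. At the upper edge of the second window they lay 31.7 kb inside and 41.05 kb outside, with folds of 3.71 and 3.21, and that edge is close to the centromere gap.

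**Figure D1:**
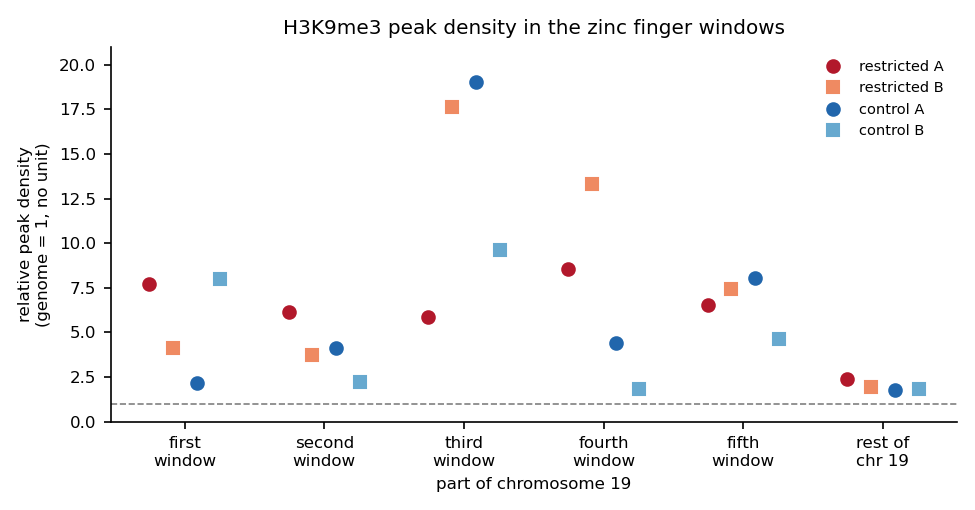
Relative density of H3K9me3 peaks (y axis, no unit, dashed line at the genome average of 1) in the 5 zinc finger windows and the rest of chromosome 19 (x axis), with 1 point per library. Restricted points are red or orange and control points are dark or light blue. The third window spreads from 5.87 to 19.0 over the libraries, and in the fourth window both restricted points lie above both control points.

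The first window, on the short arm, had a relative density of 7.74 and 4.12 in restricted A and B, against 2.15 and 7.99 in control A and B. The control libraries spanned a wider range than the restricted ones and enclosed them (exact permutation p = 1). The ratio of restricted to control was 3.61 within letter A and 0.515 within letter B, in opposite directions. Of the 35 merged regions in this window, 30 were in 1 list only.

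The second window, beside the centromere on the short arm, had 6.14 and 3.72 in restricted A and B, against 4.15 and 2.21 in control A and B. The ranges overlapped (exact permutation p = 0.667), although restricted exceeded control within each letter, 1.48 times in A and 1.68 times in B. Its peaks were narrow, with medians of 549 and 332 bp in the restricted lists, against 699 and 626.5 bp in the control lists. In 4 of 4 libraries these medians were below those of the rest of the chromosome (exact sign permutation p = 0.125, adjusted p = 0.190).

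The third window, on the long arm, had the highest density of any window in any list, in control A, and the lowest of the 5 windows in restricted A. It stood at 5.87 and 17.6 in restricted A and B, against 19.0 and 9.62 in control A and B. Restricted A was the lowest and control A the highest, and the groups overlapped (exact permutation p = 0.667). Restricted over control was 0.308 within letter A and 1.83 within letter B.

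The fourth window, the smallest at 1.2 Mb, was the only one of the 5 without overlap between the groups. It had 8.53 and 13.3 in restricted A and B, against 4.39 and 1.82 in control A and B, a difference of 1.82 on the log2 scale (exact permutation p = 0.333, adjusted p = 0.917). It rested on few peaks, 5 and 2 in the restricted lists, against 2 and 1 in the control lists. A single region, described below, held 3.54 of the 5.97 kb under peaks in restricted A and 3.44 of the 3.75 kb in restricted B, against 1.15 of the 2.51 kb in control A and all 0.679 kb in control B.

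The fifth window, at the end of the long arm, had 6.55 and 7.43 in restricted A and B, against 8.03 and 4.64 in control A and B. The control values enclosed the restricted ones (exact permutation p = 1). The final 2 Mb of the chromosome, all inside this window, held more of its marked sequence than the remainder in every list. There, peaks covered 17.8 and 8.74 kb in restricted A and B, against 18.4 and 7.28 kb in control A and B. The remainder of the window held 9.39 and 3.65 kb in the restricted lists, against 8.82 and 2.99 kb in the control lists. The first 2 Mb at the other end of the chromosome had less, 3.92 and 1.05 kb in the restricted lists, against 4.62 and 4.16 kb in the control lists.

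In the rest of chromosome 19, both restricted densities lay above both control densities, by 0.27 on the log2 scale (2.18 ± 0.31 in restricted and 1.80 ± 0.07 in control libraries, SD, n = 2 each, exact permutation p = 0.333, adjusted p = 0.917). This order did not hold for stronger peaks. With peaks of −log10 q of at least 2, or with the same number of peaks taken from each list, the difference turned to −0.29 and −0.07. With a divisor that leaves out sequence near centromere gaps it was 0.052. Farther than 5 Mb from the centromere gap, peaks of the rest covered 49.4 and 10.4 kb in restricted A and B. In control A and B they covered 28.1 and 9.79 kb there. These lengths overlapped between the groups, and a relative density of that part was not computed.

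Fold enrichment over input, the peak caller's own ratio, was modest throughout. The median over chromosome 19 peaks was 3.504 and 3.18 in restricted A and B, against 3.17 and 3.21 in control A and B, with overlapping groups (exact permutation p = 0.667). Window peaks were slightly stronger than peaks of the rest of the chromosome in every library. Their medians were 3.55 and 3.32 in restricted A and B, and 3.20 and 3.31 in control A and B. In the rest they were 3.41 and 2.92 in the restricted lists, and 3.07 and 2.92 in the control lists (higher in the windows in 4 of 4 libraries, exact sign permutation p = 0.125, adjusted p = 0.190). The third window was below the rest in 4 of 4 libraries, with medians of 2.28 in restricted B, and 2.07 and 2.18 in control A and B. In restricted A the difference was slight, at 3.406 against 3.414 in the rest. Outside 2 blocks of this window described below, its medians were 3.64 and 3.23 in restricted A and B, and 3.66 in control A. Control B had no peak there.

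The single peak with the highest fold on chromosome 19 was that of restricted A at chr19:57454060-57454579 in the fifth window, at 6.37. The highest in restricted B was a peak of the second window, at 4.45. In control A it was a peak of the fifth window, at 4.49, and in control B a peak of the first window, at 4.61. All 4 of these peaks lay in zinc finger windows, which hold 64.29% of the chromosome 19 peaks. By −log10 q and by pileup, the top peak of each list lay outside the windows, beside the centromere.

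Dividing a peak's pileup, the read depth under it, by its fold gives approximately the background that the caller used there. Setting that over the depth expected from the number of input reads shows roughly how far the input itself was raised. The lowest values away from the blocks and the centromere were 1.27 and 1.23 in restricted A and B, against 1.23 and 1.29 in control A and B, and most chromosome 19 peaks lay near them. Peaks outside the 2 blocks of the third window described below and more than 0.2 Mb from the centromere gap had median backgrounds of 1.53 and 1.67 times the expected level in restricted A and B, against 1.66 and 1.64 times in control A and B. No peak on the chromosome lay below the lowest values of its list, so medians this close to them are not read as raised input. Single peaks among these could still be high. In restricted A and B, 6 of 146 and 2 of 48 lay above 4 times the expected level. In control A and B, 7 of 86 and 0 of 38 did. Peaks beside the gap reached 1688 and 1365 times in restricted A and B, against 1386 and 1394 times in control A and B. Sites with the most reads were thus also sites with the most input reads.

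**Figure D2:**
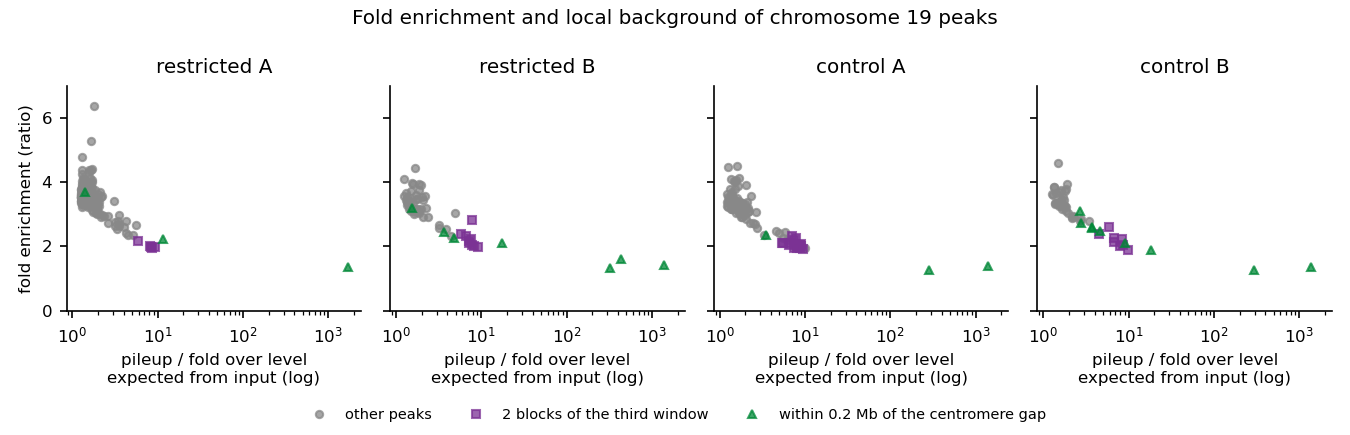
Fold enrichment of each chromosome 19 peak (y axis, ratio) against its local background over the level expected from input depth (x axis, log scale), with 1 panel per library. Grey circles are most peaks, purple squares are peaks of 2 blocks in the third window and green triangles are peaks within 0.2 Mb of the centromere gap. The background is computed from the fold, so the axes are not independent. The 8 points farthest to the right, all beside the centromere gap, have folds of 1.26 to 1.60, and the block peaks sit near a fold of 2 in all 4 panels.

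Peaks of the 4 lists that lay within 1 kb of each other were merged, which gave 258 regions on chromosome 19 of 3228 in all. Most were seen once. On chromosome 19, 186 regions were in 1 list, 45 in 2, 20 in 3 and 7 in all 4. The 72 regions in 2 or more lists were 27.9% of the chromosome's regions, close to the 26.1% over all chromosomes. The 7 in all 4 lists were 2.71%, below the 4.65% over all chromosomes. Regions in more lists were wider, with medians of 678, 874, 1835 and 3458 bp for those in 1, 2, 3 and 4 lists, as merging more lists also widens a region. The third window had the largest share in 2 or more lists, 12 of 26 regions, and the first the smallest, 5 of 35.

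Base by base, 2 lists shared less on chromosome 19 than on the other chromosomes pooled. No other chromosome was compared on its own. Restricted A and B shared 14.4 kb, which was 10.5% of the restricted A length and 24.7% of the restricted B length. Control A and B shared 17.1 kb, which was 15.3% of the control A length and 28.9% of the control B length. Shared length over joint length ran from 7.08% to 13.9% over the 6 pairs of lists on chromosome 19, and from 16.2% to 29.5% on the other chromosomes, with no overlap between these ranges. The pair of restricted lists, at 7.97%, lay inside the range of the 4 mixed pairs. The widest peak on the other chromosomes was 13984 and 17174 bp in restricted A and B, against 4275 and 3833 bp on chromosome 19. In control A and B it was 17009 and 17222 bp, against 5190 and 3274 bp. The part of peak width in the sharing was not tested.

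The widest region in all 4 lists was chr19:58766733-58777172 in the fifth window, 10.44 kb wide. Peaks covered 6.23 and 1.11 kb of it in restricted A and B, against 3.04 and 4.76 kb in control A and B. The control values lay between the restricted ones. Its highest fold was 4.13 and 3.91 in the restricted lists, against 3.37 and 3.94 in the control lists. Different segments of the region were called in different lists.

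The region chr19:44977472-44982338 in the fourth window, 4.87 kb wide, was the one of the 7 regions in all lists with more covered length in both restricted lists than in both control lists. Peaks covered 3.54 and 3.44 kb of it in restricted A and B, against 1.15 and 0.679 kb in control A and B, with no overlap. The fold was closer, at 3.84 and 3.596 in the restricted lists, against 3.17 and 3.36 in the control lists. The highest −log10 q was 2.76 and 2.895 in the restricted lists, against 1.23 and 1.33 in the control lists. The control values are close to the caller's threshold. The region was chosen for its presence in all lists and was not tested on its own.

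The region at chr19:27732025-27734125 lies beside the centromere gap and was called in all 4 lists. Its pileup was 6091 and 5989 in restricted A and B, against 5981 and 5101 in control A and B. Its fold was 1.37 and 1.41 in the restricted lists, against 1.39 and 1.35 in the control lists. With −log10 q of 131 and 200 in restricted A and B, against 165 and 121 in control A and B, it had the lowest q on the chromosome in each list and nearly the lowest fold. Within 0.2 Mb of the gap, peaks covered 2.37 and 6.33 kb in restricted A and B, against 2.45 and 10.2 kb in control A and B. Here the B libraries were above the A libraries in both groups, so this length moved with letter and lane. The part of sequencing lane in it was not tested.

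The other wide shared regions, chr19:36792015-36800786 and chr19:37770692-37774149, belong to 2 blocks of the third window. Regions were joined where they lay within 20 kb of each other, a step chosen after the data were seen. Of the 6 groups of at least 4 regions that resulted, 2 were in this window. The first block, chr19:36761654-36800786, spans 39.13 kb, and peaks covered 0.393 and 9.81 kb of it in restricted A and B, against 22.3 and 4.08 kb in control A and B. The second, chr19:37761593-37794414, spans 32.82 kb, and peaks covered 4.98 and 4.63 kb of it in restricted A and B, against 12.5 and 7.88 kb in control A and B. In the second block both restricted values were below both control values, and in the first the groups overlapped with restricted A lowest.

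Together the blocks made up 39.3% and 87.4% of the third window's length under peaks in restricted A and B, and 95.8% and 100% in control A and B. Their peaks had a median fold of 1.99 and 2.16 in restricted A and B, against 2.06 and 2.18 in control A and B. Their background was 8.25 and 7.58 times the expected level in the restricted lists, against 7.90 and 7.39 times in the control lists. At the called block peaks, input was thus raised by a like median factor in all 4 libraries. Elsewhere in the blocks the background is not known. In the first block restricted A had 1 peak, at 5.92 times the expected level. The median there was 7.47 in restricted B, 8.14 in control A and 7.37 in control B. Block peaks that passed the caller's threshold numbered 5 and 9 in restricted A and B, against 16 and 8 in control A and B. The third window's density had the same order over the libraries, which is partly built in, since block peaks are part of that density. With 9 and 8 block peaks, restricted B and control B had window densities of 17.6 and 9.62. The density is also divided by the share of the whole list, which covered 0.711 Mb in restricted B and 0.944 Mb in control B. The highest −log10 q of the first block was 1.27 and 3.26 in the restricted lists, against 3.92 and 3.96 in the control lists. Outside the blocks the third window had a relative density of 3.56 and 2.23 in restricted A and B, against 0.805 and 0 in control A and B. There both restricted values were above both control values, on 8 and 3 peaks in the restricted lists, against 2 and 0 in the control lists. In restricted B these peaks covered 2.09 kb, against 1.54 kb in control A. The blocks were drawn from these same peaks, so this order is not an independent result.

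**Figure D3:**
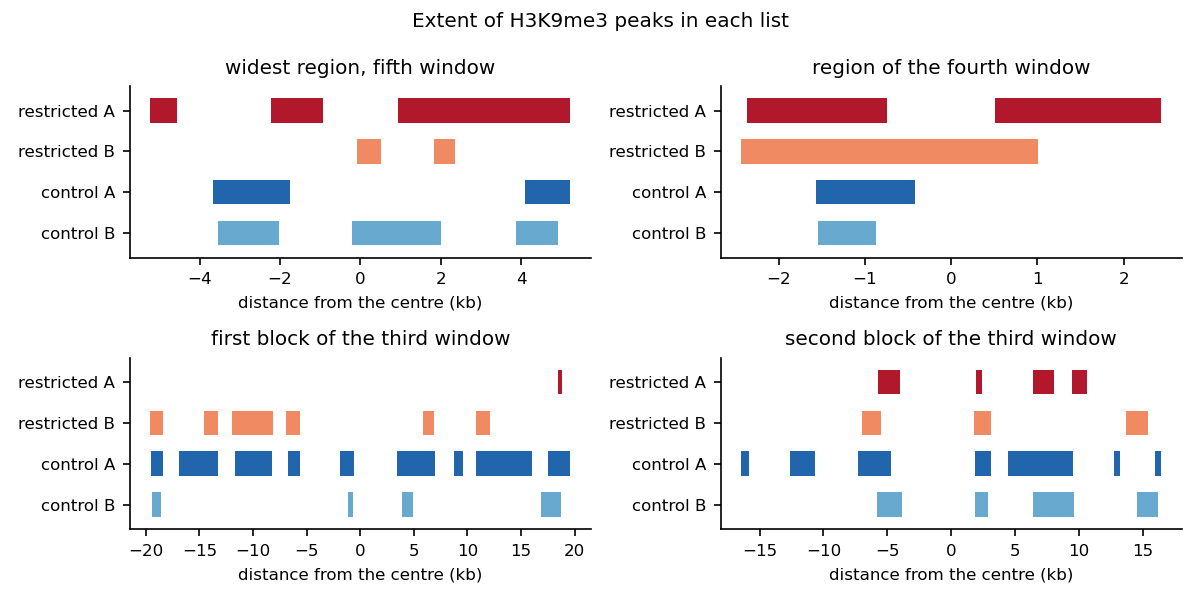
Extent of the peaks called in each library (rows, restricted above control) across 4 regions, as distance from the centre of the region in kb (x axis). In the region of the fourth window the restricted bars total 3.54 and 3.44 kb, against 1.15 and 0.679 kb for control, while in the blocks of the third window control A has the most covered length.

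The other 4 groups of regions also differed by library. In chr19:58629259-58731440 of the fifth window, a span of 102.2 kb, peaks covered 7.54 and 5.13 kb in restricted A and B, against 8.10 and 0 kb in control A and B. In chr19:50595122-50642603, outside the windows, they covered 12.9 and 1.93 kb in restricted A and B, against 7.33 and 0 kb in control A and B. Both were without a peak in control B. At the called peaks of the second of these groups, input was raised as well. The median background was 3.48 and 4.13 times the expected level in restricted A and B, and 5.30 times in control A. The median fold there was 2.63 and 2.43 in restricted A and B, and 2.39 in control A. That group is part of the peak length outside the windows, which was 52.1 kb in restricted A. In chr19:9672884-9688958 of the first window they covered 1.93 and 1.31 kb in restricted A and B, against 1.24 and 4.49 kb in control A and B. In chr19:24614160-24629377, beside the centromere gap, they covered 0 and 1.81 kb in restricted A and B, against 0.577 and 2.55 kb in control A and B.

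Regions found in both lists of one group and neither list of the other were few. There were 10 restricted-only regions, 3.88% of the 258 on chromosome 19, against 2.45% over all chromosomes. There was 1 control-only region, 0.388%, against 2.14% over all chromosomes. Pairs of lists that mixed the groups gave 3 to 14, with 14 regions held by restricted A and control A alone, 9 by restricted B and control A, 8 by restricted A and control B, and 3 by restricted B and control B. With peaks of −log10 q of at least 2 there were 8 restricted-only regions (6.96%, against 2.5% over all chromosomes) and 4 control-only regions (3.48%, against 2.44%). With the same number of peaks taken from each list there were 7 restricted-only regions (5.07%, against 2.20%) and 4 control-only regions (2.899%, against 3.04%). The low share of control-only regions on chromosome 19 was thus not seen under either setting. Leaving out 1 library and counting regions in every remaining list of one group and none of the other gave 29 restricted-only regions without restricted A, 102 without restricted B, 18 without control A and 12 without control B. The same count gave 7, 5, 23 and 54 control-only regions in that order. As shares of chromosome 19 regions, the restricted-only counts were 17.5%, 42.7%, 8.78% and 5.08% in that order, against 14.7%, 41.6%, 6.25% and 3.29% over all chromosomes. The control-only counts were 4.22%, 2.09%, 11.2% and 22.9%, against 8.85%, 3.33%, 14.8% and 25.8% over all chromosomes. The highest count of each kind was that in which an A library stood alone for its group.

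**Figure D4:**
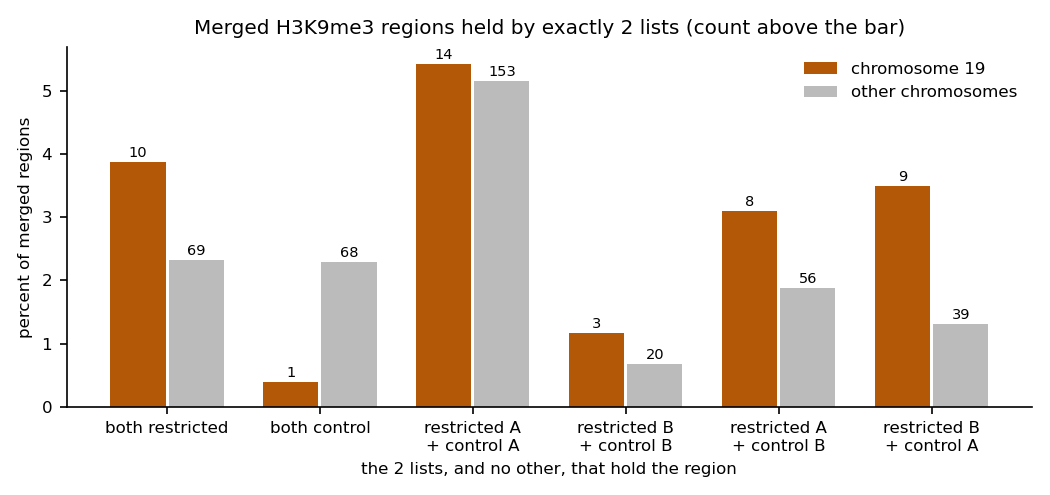
Merged regions held by exactly 2 of the 4 lists, as percent of all merged regions (y axis) for each pair of lists (x axis), on chromosome 19 (brown) and on the other chromosomes (grey), with counts above the bars. On chromosome 19 the pair of restricted lists has 10 regions and the pair of control lists 1, while restricted A with control A has 14.

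Of the 10 restricted-only regions, 7 lay in zinc finger windows, as did 165 of all 258 regions on the chromosome. The second window had 3 of them. At chr19:19820564-19824440, the widest, peaks covered 2.96 and 1.33 kb in restricted A and B, with a fold of 4.10 and 4.45. At chr19:22287576-22288289 the fold was 4.77 and 3.55, and at chr19:24119827-24120156 it was 4.39 and 3.76. These 3 regions had folds above the chromosome 19 medians of 3.504 and 3.18 in restricted A and B. Several of the other restricted-only regions, given below, had a fold below the median of a restricted list. Passing the caller's threshold in both restricted lists is part of how all of them were defined.

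The fifth window held 3 more. At chr19:57454060-57454579 the fold was 6.37 and 3.06 in restricted A and B, and −log10 q was 13.03 and 6.09, the highest of the restricted-only regions. At chr19:54151485-54152570 the fold was 3.31 and 3.46, and at chr19:58668562-58669098 it was 3.16 and 3.57. The third window held chr19:35448824-35450073, with a fold of 3.45 and 3.18.

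Outside the windows were chr19:2834215-2835476, chr19:5534399-5534932 and chr19:41471032-41472177. Their folds were 3.67 and 3.26 in restricted A and B at the first, 4.02 and 3.94 at the second, and 3.37 and 3.06 at the third of these. The control-only region, chr19:36779354-36780591, lay in the first block of the third window, with a fold of 2.26 in control A and 2.00 in control B. No read depth is given in a list that lacks a peak, so an uncalled region may have held reads below the threshold.

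In a fit over 1 Mb bins of all chromosomes (limma with Benjamini-Hochberg adjustment on log2 of relative density plus 0.1), 678 bins had a peak in at least 2 libraries and 0 of them passed an adjusted p of 0.05, a background of 0%. At an unadjusted p under 0.05 there were 62, or 9.14%. Of the 35 bins on chromosome 19, 0 passed and 3 had an unadjusted p under 0.05, with a smallest adjusted p of 0.492. The median log2 difference, restricted minus control, was 0.55 over the chromosome 19 bins and 0.01 over all bins tested. Without overlap between the groups, 9 chromosome 19 bins were denser in both restricted lists (25.7%, against 17.3% of all bins) and 3 were sparser (8.57%, against 11.9%).

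The bins named next are those with the largest positive differences among bins without overlap between the groups. The bin at 49 to 50 Mb had relative densities of 6.26 and 3.86 in restricted A and B, and no peak in either control list. Its adjusted p in limma was 0.492. The bin at 35 to 36 Mb, in the third window, had 3.91 and 3.62 in restricted A and B, again with no control peak, and the same adjusted p. These densities stand for peaks of 3.65 kb in restricted A and 0.903 kb in restricted B at 49 to 50 Mb, and for 2.28 and 0.847 kb at 35 to 36 Mb.

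The next 3 such bins lay outside the windows. The bin at 41 to 42 Mb had 2.80 and 4.87 in restricted A and B, against 0 and 1.01 in control A and B. The bin at 48 to 49 Mb had 3.08 and 4.04, against 1.04 and 0. The bin at 39 to 40 Mb had 1.93 and 4.64, against 1.62 and 0. In each of these bins 1 control list had no peak at all, so their log2 differences depend on the pseudocount.

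The 3 bins that were sparser in both restricted lists were more densely marked. The first megabase of the chromosome had 6.14 and 4.51 in restricted A and B, against 9.68 and 13.4 in control A and B, a difference of −1.10 ± 0.42 on the log2 scale (SE, limma adjusted p = 0.492). The bin at 37 to 38 Mb, which holds the second block of the third window, had 16.8 and 25.1, against 29.5 and 25.4. The bin at 53 to 54 Mb in the fifth window had 4.80 and 5.16, against 6.42 and 6.22. The last of these differed by −0.34 ± 0.41, less than its standard error.

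**Figure D5:**
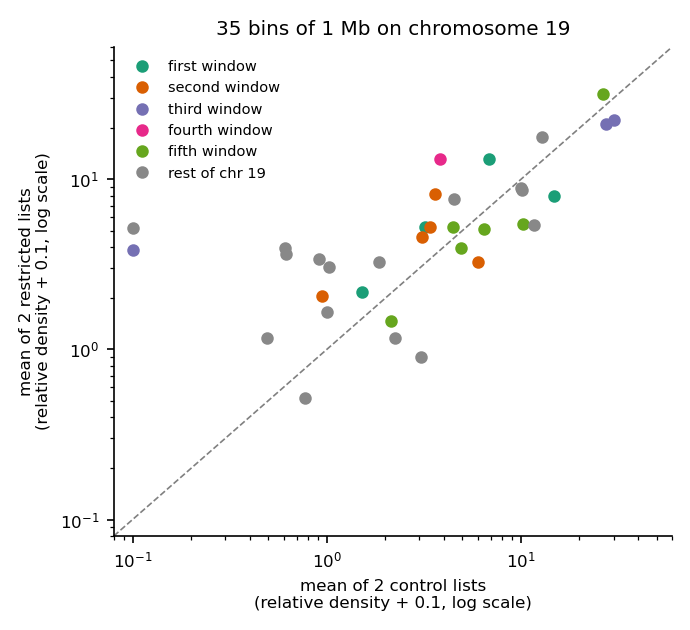
Mean relative density of the 2 restricted lists (y axis, log scale) against that of the 2 control lists (x axis, log scale) in the 35 bins of 1 Mb on chromosome 19 with a peak in at least 2 libraries, after adding 0.1 and coloured by window. The dashed line marks equal values, and the 2 points at the left edge are the bins without a control peak.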

How the data were processed

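H3K9me3 ChIP-seq peak lists of 4 HCT116 libraries were used. The authors aligned reads with Bowtie2 2.1.0 to hg19 and used SAMtools 1.5, per the submitters' processing notes, and called broad peaks with MACS2 2.1.1.20160309 for each library separately, with the input library of matching time and letter as control, per the file headers, which give q cutoffs of 0.05 and 0.1 and keep duplicates. The deposited lists give, per peak, a pileup signal, a fold ratio over local background, and −log10 of the p-value and q-value, each a mean over the broad peak. They hold no read counts outside peaks, so no count test was possible.

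Here, lengths under peaks, relative densities, regions merged within 1 kb and exact permutation tests were computed. The tests listed every relabelling or sign change directly, with numpy 2.4.6. A limma 3.58.1 fit was made on log2 of relative density plus a pseudocount of 0.1, and the fit was tested on simulated data. limma p-values were adjusted over all bins. The peaks, windows and tests were chosen with earlier results of these data known. Regions were named by rule: the windows, the 5 widest regions in all 4 lists, all group-only regions, the strongest peak per list, and the bins with the largest differences without overlap, 5 higher and 3 lower. Groups of regions within 20 kb were chosen after seeing the data. Alternatives were the peak threshold, equal list length, window edges, the divisor, merging, pseudocount, bin size, the replicate block and leaving out each library. The letters A and B are shared by the groups, and deviations from the group means of A libraries correlated at r = 0.11 over 678 bins and −0.23 over the 35 bins of chromosome 19. No genome or annotation of hg19 was used here, so no sequence or gene is given for a peak.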

Additional observations from a re-analysis of the deposited data

Results flagged for a closer look

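A second mark, H3K9me1, the monomethylated form of the same residue, was profiled in the same cells and is outside the comparisons above. The H3K9me1 lists used here hold 9268 regions on chromosome 19 in restricted A and 15912 in restricted B, against 0 in both control lists, which is what drew attention to them. The number of chromosomes with any listed region also differed, at 21 and 19 in restricted A and B, against 20 and 10 in control A and B. A comparison of H3K9me1 between the groups on chromosome 19 was therefore not made. These lists were called at a p cutoff and with duplicates limited, per the file headers, unlike the H3K9me3 lists.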

How the results depend on the processing

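Over 14 results and 127 alternatives, 100 kept their direction and call, 18 turned direction and 9 counts moved by more than 1.5 times. None of the 11 comparisons between groups could pass its test under any setting. Taking the same number of peaks from each list turned the log2 difference in covered length to −0.15, in the first window to −0.20, in the rest of the chromosome to −0.067 and in the cluster share to 0.059. Peaks of −log10 q of at least 2 turned the cluster share to 0.16 and the rest to −0.29. A divisor without sequence near centromere gaps turned the first window to −0.18. That divisor also lowered the difference in relative density of chromosome 19 to 0.037, of the rest to 0.052 and of the fifth window to 0.036. Under the stricter threshold and equal list lengths the second window stood at 1.88 and 1.59 and the fourth at 2.71 and 2.51, above their main values, and the density of chromosome 19 at 0.067 and 0.103. These rest on few peaks. Under the stricter threshold the second window held 13 and 5 peaks in restricted A and B, against 4 and 2 in control A and B. The fourth window then held 2 and 2 peaks in the restricted lists, against 1 and 0 in the control lists. Wider edges lowered the second window to 0.26. The control-only count was 4 under the stricter threshold and 4 with equal list lengths. The cause of these turns was not tested.

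Leaving out each library in turn gave log2 differences of −0.32 to 0.99 for peak number, −0.55 to 0.73 for covered length, −0.13 to 0.061 for the cluster share, −0.0083 to 0.13 for the median fold, −0.43 to 1.47 in the first window, −1.29 to 0.30 in the third and −0.20 to 0.59 in the fifth. The relative density of chromosome 19 (0.05 to 0.35), the second window (0.23 to 1.16), the fourth (1.32 to 2.59) and the rest (0.12 to 0.41) kept their sign in each case. Restricted-only regions numbered 12 to 102 and control-only regions 5 to 54, since fewer lists then had to hold or lack a region. Without 1 library a lone sample stands for its group and is assumed to vary like the other. The letter as a replicate block gave 0.20 for the relative density of chromosome 19, 1.92 for the fourth window and 0 bins called, and it changed no direction. With only 2 letters the numbers are not shown to pair the libraries. No bin on chromosome 19 passed in any limma setting, with 2 to 9 at an unadjusted p under 0.05.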

Other observations

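In the restricted libraries, where H3K9me1 regions were listed on chromosome 19, they covered 6.85% of the chromosome in restricted A and 12.6% in restricted B. They overlapped 39.4% of the H3K9me3 length under peaks in restricted A and 29.2% in restricted B. Within the zinc finger windows the overlap was 35.96% and 25.8%, and in the rest of the chromosome 45.1% and 37.3%. Both marks were called against the same input library, so the lists are not independent. The second window had the lowest H3K9me1 cover of the 5 windows in both libraries, at 4.52% and 8.57%.

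Unplaced contigs assigned to chromosome 19 held 3.39 and 6.45 kb under H3K9me3 peaks in restricted A and B, against 4.59 and 5.58 kb in control A and B, and the groups overlapped. Of the 60 bins of 1 Mb on chromosome 19, 10 had no peak in any list and 18 had a peak in all 4.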
